A study of Homo sapiens with 6 samples.

Results

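Solute carriers are membrane proteins that move sugars, amino acids, metals, nucleotides and ions across the plasma membrane and the membranes of mitochondria, lysosomes and the Golgi, and they carry gene symbols beginning with SLC. The genes described here are those with an SLC symbol, pseudogenes and antisense genes left out, whose mean over the 6 libraries was at least 5 CPM (counts scaled by the plain library total). They number 151 of 378 SLC genes and of 61517 rows in the table. In the transcripts of THP-1 cells given ruxolitinib, 25 of the 151 were higher (16.6%, against 17.8% of all tested genes of at least 5 CPM) and 34 lower (22.5%, against 19.6%) than in control cells. The median size among the 59 that passed the test was 0.40 on the log2 scale. The macrophage metal transporter SLC11A1 had the largest fall, to a mean of 4.49 CPM in ruxolitinib libraries, against 25.7 CPM in control libraries. Among the 151, the phosphate transporter SLC20A1 had the largest rise, to 320 CPM in ruxolitinib libraries, against 143 CPM in control libraries. SLC1A2, just under the threshold of 5 CPM, rose by more and is described at the end.

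THP-1 is a human monocytic leukaemia line, here 1 line in 6 libraries. The cells of both groups had been turned into macrophages and driven into pyroptosis, a lytic inflammatory death, with lipopolysaccharide (LPS) and ATP. The 3 ruxolitinib libraries, numbered 1 to 3, came from cells that also received the JAK1 and JAK2 kinase inhibitor ruxolitinib, which the treatment field spells Lukotinib. The 3 control libraries, also numbered 1 to 3, came from cells that did not receive it. The sources used here give no dose, no exposure time and no agent for the differentiation. Unstimulated cells were not analysed, so every value below comes from stimulated cells. The labels do not say whether replicates are separate cultures, and p-values then cover a spread between samples that could be technical.

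In a macrophage these carriers meet several demands. Glucose and lactate carriers serve glycolysis, the glutamine, arginine and cystine carriers feed nitric oxide and glutathione synthesis, and metal carriers load and unload iron, manganese and zinc from the cytosol and the phagosome. Interferon gamma, which signals through the JAK kinases that ruxolitinib blocks, is known to raise SLC11A1 transcription in macrophages. The SLC25 family sits in the inner mitochondrial membrane, and the SLC35 family brings nucleotide sugars into the endoplasmic reticulum and Golgi for glycosylation.

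The libraries held 17757595 to 24533979 counts, and a count of 0 allowed a level of up to 0.122 to 0.169 CPM (3 counts; counting error only). Levels below are CPM over totals scaled by TMM factors. Of 9 tested monocyte and macrophage markers, 8 were lower with ruxolitinib and 1, the lysozyme gene LYZ, was higher. Their summed level was 657 to 704 CPM in ruxolitinib libraries and 1194 to 1228 CPM in control libraries. Over all genes tested as described below, 16.1% were lower and 13.6% higher. The T cell markers CD3D, CD3E and CD3G had 0 counts in every library; the T cell list as a whole summed to 4.56 to 5.91 CPM with ruxolitinib and 5.604 to 6.38 CPM in control, nearly all of it from TRAC, which did not pass, and the 5 epithelial markers summed to at most 0.279 CPM. Among T cell, B cell and fibroblast markers 1 of 4 tested passed, the fibroblast marker PDGFRA, which had 8.66, 8.90 and 9.02 CPM with ruxolitinib, against 6.37, 4.78 and 5.73 CPM in control. The 5 fibroblast markers summed to 9.35 to 10.04 CPM with ruxolitinib and 6.42 to 7.15 CPM in control. In bulk RNA, fewer cells of one kind and less RNA per cell cannot be told apart, and the part of the marker changes in the results below was not tested.

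In many genes the second libraries lay at opposite ends of their groups. Control replicate 2 was the highest control and ruxolitinib replicate 2 the lowest ruxolitinib library in 48 of the 151 genes (31.8%), against 1977 of 9290 tested genes of at least 5 CPM (21.3%). These 48 genes had a median transcript GC content of 57.9%, against 46.7% in the other members. The same contrast held over all tested genes of at least 5 CPM, with 57.1% in the 1977 genes and 46.6% in the rest. Over the 151 genes, the deviation of a library from its group mean was correlated with transcript GC. The correlation was 0.21, -0.56 and 0.49 in ruxolitinib replicates 1, 2 and 3. It was -0.49, 0.67 and -0.47 in control replicates 1, 2 and 3. Ruxolitinib replicate 3 thus also deviated with GC, in the other direction from ruxolitinib replicate 2. Over the 9290 genes the correlation was -0.36 and 0.35 in ruxolitinib replicates 2 and 3, and 0.53 in control replicate 2. Genes are not independent replicates, and these correlations only describe the libraries. The second libraries carry batch number 2, and values without them are given beside the results below that moved most.

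**Figure D1:**
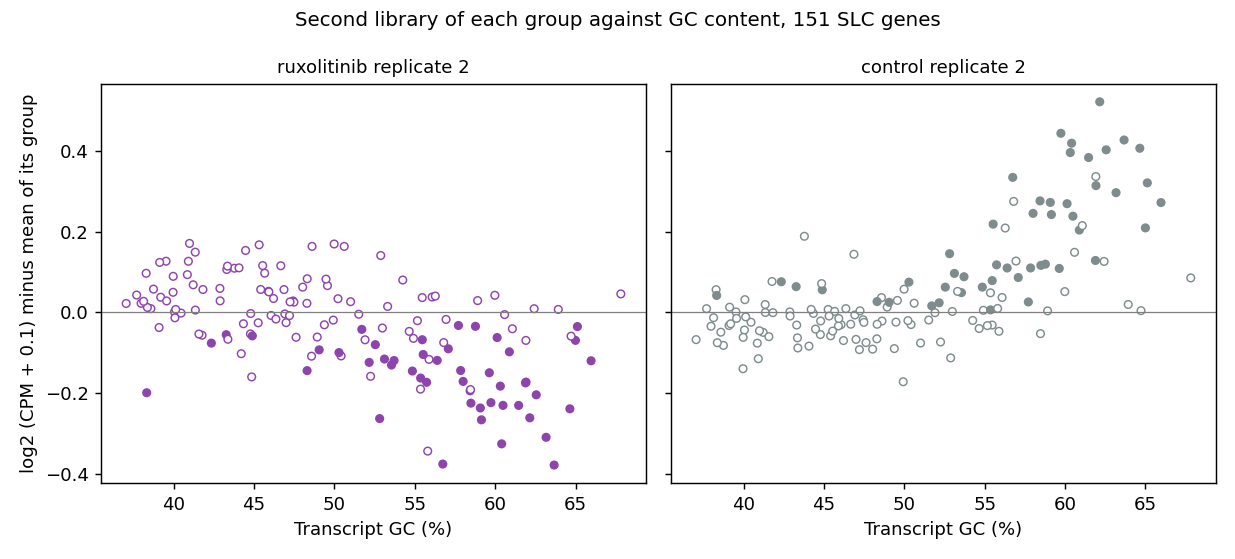
Each point is 1 of 151 SLC genes, plotted by its transcript GC content (percent) and by how far its log2(CPM + 0.1) in the second library of a group lay from the mean of that group, for ruxolitinib replicate 2 (left) and control replicate 2 (right). Filled points are the 48 genes in which control replicate 2 was the highest control and ruxolitinib replicate 2 the lowest ruxolitinib library; their median GC content was 57.9%, against 46.7% in the others.

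Differences were tested with edgeR's quasi-likelihood test over 14051 genes, with Benjamini-Hochberg adjustment over all of them and a threshold of 0.05, and every adjusted p below comes from it. Fold changes are ruxolitinib over control, with their standard error (SE, 3 libraries per group). All 151 SLC genes were tested. The 59 that passed are 39.1% of them, against 29.7% of all tested genes and 37.4% of the 9290 tested genes of at least 5 CPM, which are closer to the SLC genes in abundance. Split by direction, 13.6% of all tested genes were higher and 16.1% lower. The libraries of the groups did not overlap in 83 of the 151 genes (55.0%), against 51.5% of genes of at least 5 CPM. Changes of at least 1 on the log2 scale were found in 2 of the 151 SLC genes, SLC11A1 and SLC20A1 (1.32%), against 2.47% of genes of at least 5 CPM. The median log2 fold change was -0.03 in the SLC genes and -0.01 over all tested genes. The shares of SLC genes that passed, were higher or were lower lay near those of all tested genes of at least 5 CPM. The class counts below are to be read beside the same shares, 17.8% higher and 19.6% lower.

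The count depended on which libraries were used. Without both libraries of batch 1, 14 SLC genes were higher and 20 lower. Without both of batch 2, 38 were higher and 38 lower, and 57 of the 59 calls were kept. With the batch number as a replicate block, 20 were higher and 27 lower, all among the 59. The 12 that missed under the block (adjusted p = 0.0526 to 0.117) included SLC12A2, SLC41A1, SLC35A4, SLC25A20, SLC39A14, SLC30A1, SLC5A6, SLC7A6OS, SLC35E3, SLC39A6 and SLC35E1. All 59 genes kept their direction in each of 19 refits, and 30 of them, 11 higher and 19 lower, passed in all 19. Calls that a single library or batch could end are marked with their adjusted p where the gene is described.

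**Figure D2:**
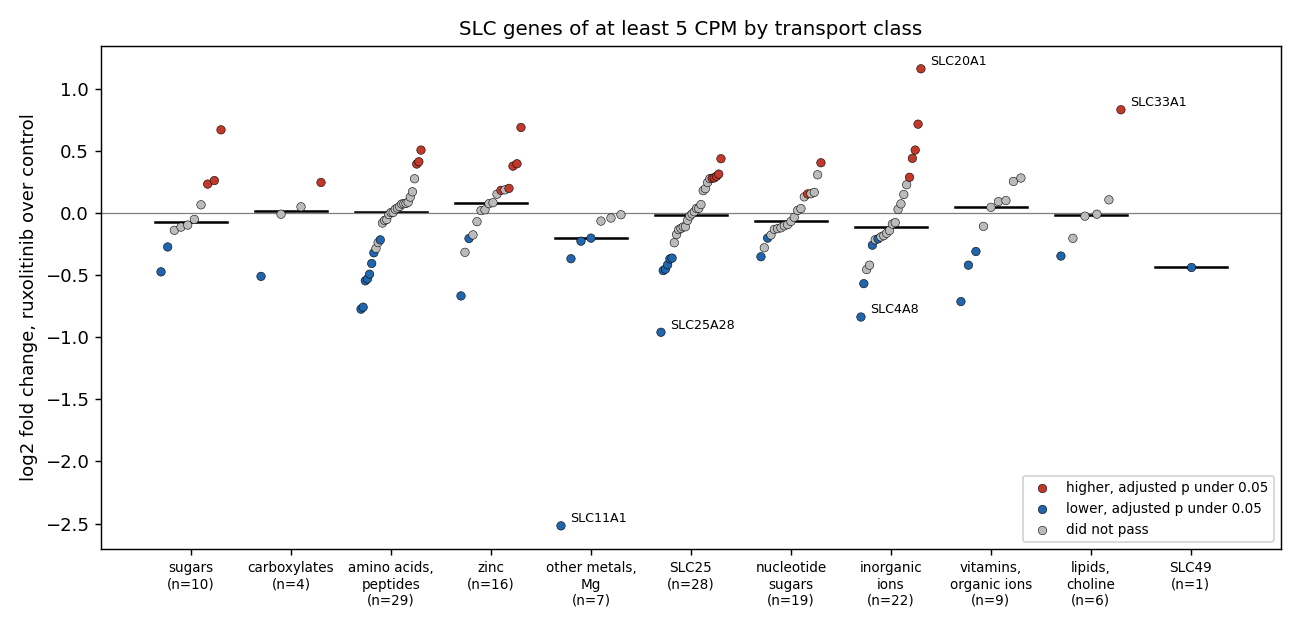
Log2 fold change (ruxolitinib over control, y axis) of 151 SLC genes, grouped on the x axis by what the family carries, with the number of genes in brackets. Red points passed as higher (25), blue points as lower (34) and grey points did not pass (92); black bars are class medians. SLC11A1 at -2.52 and SLC20A1 at 1.16 lie outside the range of the other genes, which runs between -0.96 and 0.83.

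Among the 10 sugar, inositol and vitamin carriers of families SLC2, SLC5, SLC37, SLC45 and SLC50, 3 rose, 2 fell and 5 did not pass. SLC2A1, the glucose transporter GLUT1, rose: it had 424, 419 and 442 CPM in ruxolitinib libraries, against 353, 364 and 355 CPM in control libraries (log2 fold change 0.26 ± 0.04, adjusted p = 0.00061). SLC2A6, a lysosomal member of the glucose transporter family, had 24.4, 23.4 and 24.2 CPM with ruxolitinib and 12.5, 18.5 and 13.9 CPM in control. Its ruxolitinib libraries were nearly equal and all above the controls, among which control replicate 2 was the highest (log2 fold change 0.67 ± 0.13, adjusted p = 0.0030). SLC2A3, the glucose transporter GLUT3, averaged 78.3 CPM with ruxolitinib and 84.7 CPM in control and did not pass (-0.11 ± 0.05, adjusted p = 0.12; lower at -0.13 without batch 2, adjusted p = 0.048), and its near-identical copy SLC2A14 had at most 1 count in a library.

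The SLC2A1 call ended without batch 1 (adjusted p = 0.0506) and that of SLC2A6 without batch 3 (adjusted p = 0.0605). SLC37A2, an exchanger of glucose 6-phosphate for phosphate, fell, with 33.3, 31.5 and 36.9 CPM with ruxolitinib, against 41.01, 54.3 and 45.5 CPM in control (-0.47 ± 0.10, adjusted p = 0.0084). It measured -0.30 without batch 2, and its call ended without ruxolitinib replicate 2 (adjusted p = 0.0513). SLC5A3, which takes up the osmolyte myo-inositol, had 347, 285 and 355 CPM with ruxolitinib, against 396, 409 and 387 CPM in control (-0.27 ± 0.08, adjusted p = 0.025). Ruxolitinib replicate 2 was the lowest library, and without it the change was -0.18. The SLC5A3 call ended without control replicate 1 or 3 (adjusted p = 0.0514 and 0.0519), without batch 1 (adjusted p = 0.0780) and with offsets for transcript GC (adjusted p = 0.0939 and, with the replicate block as well, 0.0810). SLC5A6, which carries biotin and pantothenate, rose by a log2 fold change of 0.23 ± 0.07 (adjusted p = 0.033), and that call ended without any 1 of 4 libraries, namely replicates 1 and 3 of either group (adjusted p = 0.0804 to 0.102).

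The 4 carriers of the SLC16 family divided. SLC16A1, the lactate and pyruvate carrier MCT1, rose to 90.8, 101 and 88.3 CPM in ruxolitinib libraries, against 80.05, 76.3 and 79.98 CPM in control libraries (0.25 ± 0.06, adjusted p = 0.0073). Its call ended without batch 1 (adjusted p = 0.0751), and its log2 fold change was 0.16 without batch 2. Its antisense neighbour SLC16A1-AS1 averaged 1.22 CPM with ruxolitinib and 2.63 CPM in control, and the strand setting of the counts is not given in the sources used here. SLC16A6, a family member known to carry taurine, fell in every library, with 44.2, 44.6 and 45.3 CPM with ruxolitinib and 63.1, 62.7 and 65.0 CPM in control (-0.51 ± 0.05, adjusted p = 1.4e-05). SLC16A3, the lactate exporter MCT4, did not pass. It had 234, 210 and 241 CPM with ruxolitinib, against 205, 275 and 208 CPM in control, so that control replicate 2 lay above all 3 ruxolitinib libraries and the other 2 controls below them (-0.01 ± 0.13, adjusted p = 0.97). Without batch 2 it passed as higher (0.20, adjusted p = 0.00062), and with offsets for transcript GC it passed as lower (-0.15, adjusted p = 0.028).

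Amino acid and peptide carriers were the largest class, with 29 genes, of which 3 rose, 8 fell and 18 did not pass. The largest falls were those of SLC36A1 and SLC7A7. SLC36A1, the proton-coupled carrier that exports small amino acids from the lysosome, had 63.2, 57.1 and 67.7 CPM with ruxolitinib and 108, 111 and 103 CPM in control (-0.77 ± 0.06, adjusted p = 2.7e-06). SLC7A7, which exchanges cationic for neutral amino acids at the plasma membrane in a dimer with SLC3A2, had 59.9, 56.4 and 61.3 CPM with ruxolitinib, against 99.4, 100 and 101 CPM in control (-0.76 ± 0.05, adjusted p = 3.6e-07). The groups were well apart in both genes. SLC15A3, which brings histidine and bacterial dipeptides out of the endolysosome, had 15.2, 11.8 and 14.98 CPM with ruxolitinib, against 19.2, 23.9 and 18.1 CPM in control (-0.55 ± 0.13, adjusted p = 0.0095; -0.30 without batch 2, adjusted p = 0.012). Its relative SLC15A4 averaged 15.7 CPM with ruxolitinib and 18.5 CPM in control and did not pass (adjusted p = 0.096).

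SLC1A3, the glutamate transporter EAAT1, fell to 401, 400 and 405 CPM in ruxolitinib libraries, against 561, 554 and 583 CPM in control libraries (-0.49 ± 0.04, adjusted p = 3.6e-06). SLC43A3, a purine nucleobase carrier placed in this class by its family number, had 309, 294 and 320 CPM with ruxolitinib, against 386, 386 and 381 CPM in control (-0.32 ± 0.04, adjusted p = 0.00020). Both are abundant, and neither gene's groups overlapped. SLC38A6 had 14.2, 14.8 and 15.04 CPM with ruxolitinib, against 22.8, 20.1 and 20.8 CPM in control (-0.53 ± 0.08). SLC38A7, a glutamine carrier of the lysosome, fell by 0.41 on the log2 scale (SE 0.10, adjusted p = 0.0071). The eighth, SLC7A6OS, is not a carrier but a gene on the strand opposite SLC7A6, and its fall (-0.22 ± 0.07, adjusted p = 0.030) did not survive the removal of any 1 of 4 libraries, namely control replicate 3 and each ruxolitinib replicate (adjusted p = 0.0532 to 0.155).

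The glutamine carriers SLC38A1 and SLC38A2 rose while SLC38A6 and SLC38A7 fell. SLC38A2, a transcript known to be raised by amino acid shortage, had 802, 800 and 795 CPM with ruxolitinib, against 610, 582 and 608 CPM in control (0.41 ± 0.04, adjusted p = 1.5e-05). SLC38A1 had 86.2, 82.6 and 81.9 CPM with ruxolitinib and 62.6, 64.0 and 64.1 CPM in control (0.39 ± 0.05, adjusted p = 7.1e-05). Within each group the 3 libraries of these genes lay close together. SLC7A2, the inducible arginine transporter CAT2, had 12.9, 14.2 and 12.5 CPM with ruxolitinib, against 7.15, 10.4 and 10.1 CPM in control (0.51 ± 0.13, adjusted p = 0.014). Without batch 1 its log2 fold change was 0.38 and its call ended (adjusted p = 0.11).

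Cystine and large neutral amino acid carriers did not pass. SLC7A11, the cystine and glutamate exchanger that supplies glutathione synthesis, had 1154, 1157 and 1138 CPM with ruxolitinib, against 1237, 1158 and 1199 CPM in control (-0.06 ± 0.04, adjusted p = 0.34). Its partner subunit SLC3A2 had 333, 313 and 337 CPM with ruxolitinib, against 293, 317 and 290 CPM in control (0.13 ± 0.05, adjusted p = 0.074). SLC7A5, the leucine transporter LAT1, had 72.7, 56.9 and 87.6 CPM with ruxolitinib, against 53.1, 83.8 and 55.2 CPM in control (0.17 ± 0.26, adjusted p = 0.69). In SLC7A5 the second library of each group went against the others. The glutamine importer SLC1A5 had the same layout, with 56.5, 47.5 and 59.8 CPM with ruxolitinib, against 52.2, 67.8 and 49.5 CPM in control (-0.05 ± 0.14, adjusted p = 0.83).

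Without both libraries of batch 2, amino acid carriers gave 9 rises and 7 falls. SLC7A5 then passed as higher (0.56, adjusted p = 2.0e-05), as did SLC43A2, another leucine carrier (0.65, adjusted p = 9.8e-10), SLC3A2 (0.20, adjusted p = 0.00027) and SLC1A5 (0.20, adjusted p = 0.012). Over all SLC genes, 19 passed in that fit and not in the fit to 6 libraries, 14 higher (log2 fold changes of 0.20 to 0.65) and 5 lower (-0.24 to -0.13). All 14 of the higher ones were among the 48 genes in which the second libraries lay at opposite ends. The 48 were defined by the same libraries that this fit left out, so the overlap largely follows from that definition. The median GC content of the 14 was 60.4%, against 40.9% in the 5 lower ones. With offsets for GC trends over all 6 libraries, 3 of the 19 passed: SLC3A2 as higher (0.15, adjusted p = 0.0090), the vesicular glutamate transporter SLC17A7 as higher (0.25, adjusted p = 0.0082) and SLC16A3 as lower. SLC7A5 (0.15, adjusted p = 0.51) and SLC43A2 (0.27, adjusted p = 0.12) did not pass there.

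Zinc carriers comprised 16 genes, 5 SLC30 exporters and 11 SLC39 importers, of which 5 rose, 2 fell and 9 did not pass. With the replicate block, and likewise without batch 1, 3 rose and 1 fell, and without batch 2, 6 rose and 3 fell. SLC30 proteins move zinc out of the cytosol, into vesicles or out of the cell, and SLC39 proteins move it in. SLC39A8, the zinc and manganese importer ZIP8, had 192, 212 and 184 CPM with ruxolitinib, against 129, 117 and 120 CPM in control (0.69 ± 0.06, adjusted p = 4.7e-06). SLC39A7, which releases zinc from the endoplasmic reticulum, had 253, 250 and 258 CPM with ruxolitinib, against 194, 188 and 196 CPM in control (0.40 ± 0.04, adjusted p = 2.4e-05). SLC30A5, which loads zinc into the early secretory pathway, had 81.7, 89.1 and 77.9 CPM with ruxolitinib, against 62.9, 62.4 and 66.03 CPM in control (0.38 ± 0.06, adjusted p = 0.00045). In these 3 genes every ruxolitinib library exceeded every control library.

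SLC39A14, an importer of zinc, iron and manganese, was the most abundant member per transcript length and rose slightly, with 1064, 1112 and 1076 CPM with ruxolitinib, against 952, 935 and 979 CPM in control (0.18 ± 0.04, adjusted p = 0.0071). The call ended under the block (adjusted p = 0.0640) and without batch 1 (adjusted p = 0.156). SLC39A6 rose by a log2 fold change of 0.20 ± 0.06 (adjusted p = 0.032). That call ended without any 1 of 4 libraries, namely replicates 1 and 2 of either group (adjusted p = 0.0597 to 0.0975), and its value was 0.10 without batch 2. SLC39A11, another ZIP family member, fell to 30.9, 33.6 and 30.8 CPM in ruxolitinib libraries, against 50.3, 49.7 and 51.2 CPM in control libraries (-0.67 ± 0.06, adjusted p = 4.9e-06). SLC30A1, the plasma membrane zinc exporter and a target of the metal-responsive factor MTF1, had 39.9, 41.1 and 40.3 CPM with ruxolitinib, against 48.1, 45.5 and 46.3 CPM in control (-0.20 ± 0.05, adjusted p = 0.014). Its call ended without control replicate 1, control replicate 3 or ruxolitinib replicate 1 (adjusted p = 0.0665 to 0.0970). MTF1 itself had 94.5, 94.7 and 97.1 CPM with ruxolitinib, against 134, 129 and 139 CPM in control (-0.49 ± 0.05, adjusted p = 1.2e-05). SLC39A1, a broadly expressed importer, averaged 120 CPM with ruxolitinib and 114 CPM in control and did not pass (adjusted p = 0.23).

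**Figure D3:**
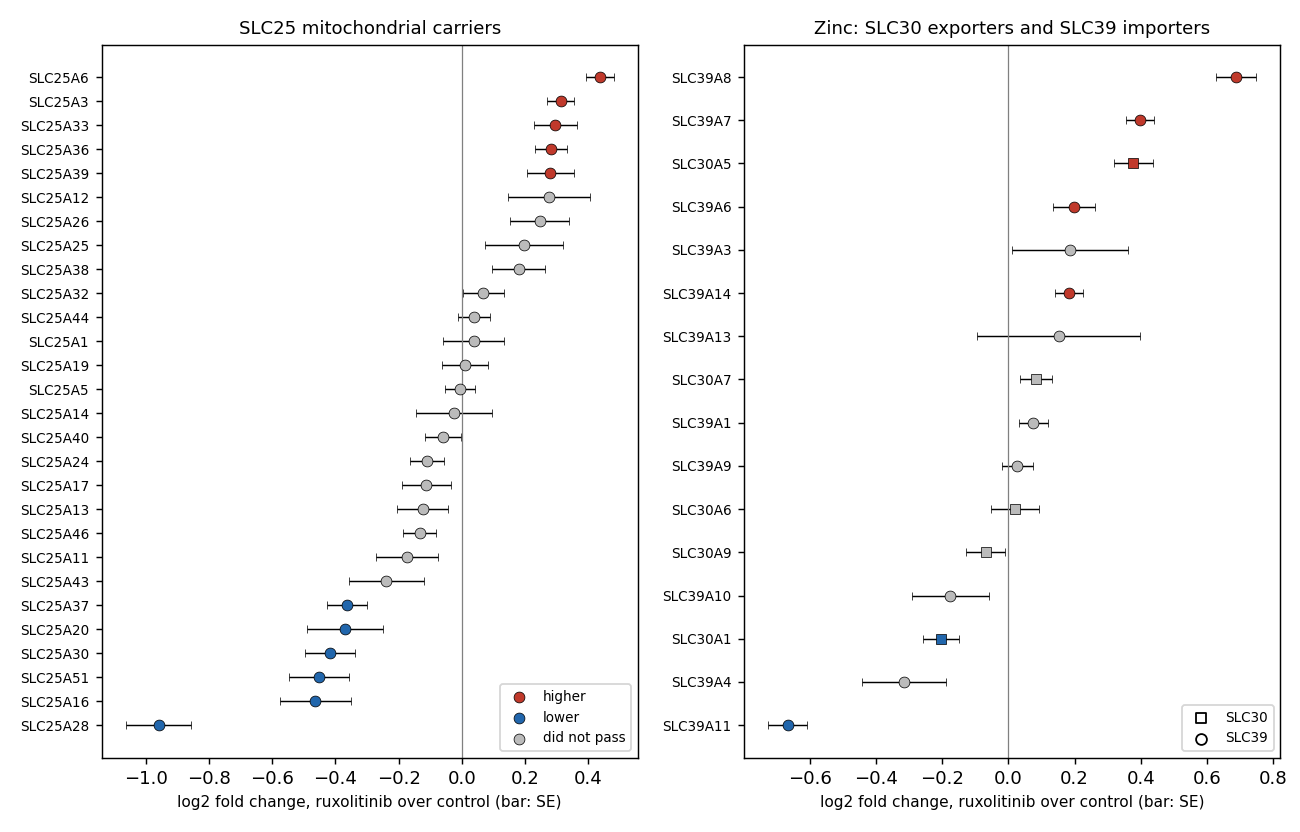
Log2 fold changes (x axis, ruxolitinib over control, bars are SE, 3 libraries per group) of the 28 SLC25 mitochondrial carriers (left) and the 16 zinc carriers (right), with squares for SLC30 and circles for SLC39. Red genes passed as higher, blue genes as lower and grey genes did not pass; SLC25A28 (-0.96) and SLC39A11 (-0.67) are the lowest and SLC25A6 (0.44) and SLC39A8 (0.69) the highest of each panel.

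Of the 7 carriers of iron, copper and magnesium, 4 fell, 0 rose and 3 did not pass by edgeR's quasi-likelihood test. At an unadjusted p under 0.05, by DESeq2 and by limma-voom the count of rises was also 0. Over all tested genes of at least 5 CPM, 17.8% rose and 19.6% fell, and 7 genes are few to set beside these shares. SLC11A1, known as NRAMP1, pumps iron and manganese out of the phagosome and limits the growth of intracellular bacteria. It had 4.25, 3.75 and 5.48 CPM with ruxolitinib, against 21.7, 30.7 and 24.5 CPM in control, or 81, 70 and 102 counts against 386, 771 and 565. The lowest control was well above the highest ruxolitinib library, and the fall of -2.52 ± 0.17 on the log2 scale (adjusted p = 4.9e-06) is a 5.73-fold lower level. Control replicate 2 was the highest and ruxolitinib replicate 2 the lowest library, and without both the change was -2.26; over all 19 refits it lay between -2.72 and -2.26. SLC11A2, the ubiquitous iron importer DMT1, had 89.6, 89.0 and 89.0 CPM with ruxolitinib, against 105, 102 and 101 CPM in control (-0.20 ± 0.05, adjusted p = 0.0055; 0.0576 without control replicate 1 and 0.145 without batch 1). Per transcript length the SLC11A1 level was 0.0555, 0.0493 and 0.0719 times that of SLC11A2 in ruxolitinib libraries, against 0.242, 0.352 and 0.286 times in control libraries.

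The magnesium carriers SLC41A1 and SLC41A3 fell too. SLC41A3 had 13.9, 13.2 and 13.5 CPM with ruxolitinib, against 16.96, 18.97 and 16.5 CPM in control (-0.37 ± 0.09, adjusted p = 0.0072; 0.0622 without batch 1). SLC41A1 averaged 50.6 CPM with ruxolitinib and 59.1 CPM in control (-0.23 ± 0.07, adjusted p = 0.021), and its call ended without control replicate 3, ruxolitinib replicate 1 or ruxolitinib replicate 2 (adjusted p = 0.0629 to 0.0874). Without batch 1, SLC11A1 was the 1 gene of the 7 that passed. The copper carriers SLC31A1 and SLC31A2 did not pass, with 113 and 87.1 CPM in ruxolitinib libraries and 116 and 88.0 CPM in control libraries. Ferroportin, SLC40A1, the cell's iron exporter, was at 0.420, 0.322 and 0.537 CPM with ruxolitinib and 0.451, 0.717 and 0.261 CPM in control, too low to be tested.

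SLC11A1 lies on chromosome 2 (218382029 to 218396894, plus strand, GRCh38). Its promoter window is shown because the gene had the largest change of the 151. RefSeq's start lies 244 bases downstream of the GENCODE start. The window runs from 250 bases before to 50 after RefSeq's start (chr2:218382023-218382322, GRCh38.p14, plus strand). The capitals mark the letters TGATGNAA, the C/EBP-ATF element, 54 bases before RefSeq's start. Most of the window, with the marked letters, lies downstream of the GENCODE start and so inside that gene. Gene counts do not say which start these cells used.
SLC11A1 promoter: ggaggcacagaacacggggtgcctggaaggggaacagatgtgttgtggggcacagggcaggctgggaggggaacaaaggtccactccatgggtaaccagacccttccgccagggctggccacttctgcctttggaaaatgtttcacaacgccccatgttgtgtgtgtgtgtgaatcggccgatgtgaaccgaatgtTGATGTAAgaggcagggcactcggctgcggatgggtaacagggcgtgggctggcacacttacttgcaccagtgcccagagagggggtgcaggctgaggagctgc

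The SLC25 mitochondrial carriers numbered 28, of which 5 rose, 6 fell and 17 did not pass. Both mitoferrins, which import iron for heme and iron-sulfur cluster synthesis, fell. SLC25A28, mitoferrin 2, had 11.3, 9.11 and 10.6 CPM with ruxolitinib, against 20.2, 21.8 and 18.3 CPM in control (-0.96 ± 0.10, adjusted p = 2.6e-05). SLC25A37, mitoferrin 1, had 202, 186 and 217 CPM with ruxolitinib, against 249, 277 and 251 CPM in control (-0.36 ± 0.06, adjusted p = 0.0011). Per transcript length SLC25A37 stood at 3.85, 4.39 and 4.42 times the level of SLC25A28 in ruxolitinib libraries, against 2.66, 2.74 and 2.95 times in control libraries, with no overlap.

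Other falls were smaller. SLC25A51, which imports NAD into mitochondria, had 10.03, 9.49 and 10.9 CPM with ruxolitinib, against 13.7, 14.1 and 13.7 CPM in control (-0.45 ± 0.09, adjusted p = 0.0035; 0.0607 without batch 1). SLC25A16 averaged 6.34 CPM with ruxolitinib and 8.73 CPM in control (-0.46 ± 0.11, adjusted p = 0.0085; 0.0757 without batch 1), and SLC25A30 averaged 14.5 CPM with ruxolitinib and 19.3 CPM in control (-0.42 ± 0.08, adjusted p = 0.0020). SLC25A20, the carnitine and acylcarnitine exchanger that feeds fatty acid oxidation, fell by 0.37 on the log2 scale (SE 0.12, adjusted p = 0.036). The SLC25A20 call ended when any 1 library other than ruxolitinib replicate 2 was left out (adjusted p = 0.0575 to 0.124).

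Carriers that rose included those for phosphate, adenine nucleotides and glutathione. SLC25A6, the ADP/ATP carrier ANT3, had 163, 163 and 159 CPM with ruxolitinib, against 119, 121 and 118 CPM in control (0.44 ± 0.04, adjusted p = 1.2e-05). The call ended with offsets for transcript GC (adjusted p = 0.145). SLC25A5, the ADP/ATP carrier ANT2, had 142, 147 and 143 CPM with ruxolitinib, against 148, 137 and 149 CPM in control and did not pass (-0.01 ± 0.05, adjusted p = 0.94). Per transcript length SLC25A5 was 1.253, 1.301 and 1.297 times SLC25A6 in ruxolitinib libraries, against 1.79, 1.63 and 1.82 times in control libraries. SLC25A5 and SLC25A6 are similar in sequence and have processed pseudogenes, 3 of which were listed with at most 1 count in any library; reads shared between copies could have been split by the counting.

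SLC25A3, which brings phosphate and copper into mitochondria, had 326, 329 and 314 CPM with ruxolitinib, against 265, 255 and 259 CPM in control (0.31 ± 0.04, adjusted p = 0.00016). The pyrimidine nucleotide carriers SLC25A33 (0.30 ± 0.07, adjusted p = 0.0066) and SLC25A36 (0.28 ± 0.05, adjusted p = 0.0013) rose together, and the call of SLC25A33 ended without batch 3 (adjusted p = 0.0597) and that of SLC25A36 without batch 1 (adjusted p = 0.0600). SLC25A39, which imports glutathione, averaged 35.3 CPM with ruxolitinib and 29.02 CPM in control (0.28 ± 0.08, adjusted p = 0.015), and its call ended without control replicate 3 or ruxolitinib replicate 1 (adjusted p = 0.0508 and 0.0626). Without batch 1, 3 SLC25 genes rose and 3 fell.

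SLC25A28 lies on chromosome 10 (99610522 to 99620609, minus strand, GRCh38), and its window is shown as that of the second largest fall among the 151 genes. RefSeq's start lies 170 bases downstream of the GENCODE start (window chr10:99620390-99620689, GRCh38.p14, minus strand). It holds none of the motifs searched and so has no capitals.
SLC25A28 promoter: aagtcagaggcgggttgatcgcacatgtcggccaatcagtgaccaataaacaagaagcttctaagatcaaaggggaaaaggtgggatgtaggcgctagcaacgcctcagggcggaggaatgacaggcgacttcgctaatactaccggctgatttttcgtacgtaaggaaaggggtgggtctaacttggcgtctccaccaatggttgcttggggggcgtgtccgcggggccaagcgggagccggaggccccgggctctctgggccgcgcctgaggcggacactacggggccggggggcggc

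The nucleotide sugar family SLC35 had 19 members, of which 2 rose, 2 fell and 15 did not pass. With the replicate block, and likewise without batch 1 or batch 3, 1 rose and 0 fell. SLC35B1, which exchanges ATP for ADP across the endoplasmic reticulum membrane, had 53.1, 55.7 and 54.3 CPM with ruxolitinib, against 42.0, 40.5 and 40.7 CPM in control (0.40 ± 0.05, adjusted p = 0.00013). The other 3 calls each ended when 1 of several libraries was left out. SLC35E1 (0.15 ± 0.05, adjusted p = 0.038) did so without any 1 library except control replicate 2 (adjusted p = 0.0645 to 0.108). SLC35A4 (-0.20 ± 0.06, adjusted p = 0.029) did so without control replicate 1, control replicate 3 or ruxolitinib replicate 2 (adjusted p = 0.0900 to 0.125). SLC35E3 (-0.35 ± 0.12, adjusted p = 0.042) did so without replicate 1 or 3 of either group (adjusted p = 0.0764 to 0.136). SLC35A1, the carrier of CMP-sialic acid, averaged 21.8 CPM with ruxolitinib and 23.8 CPM in control and did not pass (adjusted p = 0.24).

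The 22 genes of the inorganic ion families hold 20 carriers, the adaptor SLC9A3R1 and SLC4A1AP, and 5 rose, 4 fell and 13 did not pass. SLC20A1, the sodium and phosphate cotransporter PiT1, had 324, 307 and 329 CPM with ruxolitinib, against 135, 149 and 145 CPM in control, a 2.24-fold level. The groups lay far apart, with a log2 fold change of 1.16 ± 0.05 (adjusted p = 7.4e-09), which ranged between 1.11 and 1.22 over 19 refits. Its relative SLC20A2 did not pass (32.9 CPM with ruxolitinib and 37.4 CPM in control, -0.18 ± 0.07, adjusted p = 0.061). SLC20A2 passed as lower without batch 2 (-0.24, adjusted p = 0.011), without ruxolitinib replicate 2 (adjusted p = 0.0366) and with scaling by library totals alone (adjusted p = 0.0272). SLC20A1 stood at 11.5, 10.5 and 12.9 times SLC20A2 per transcript length in ruxolitinib libraries, against 4.38, 4.82 and 4.49 times in control libraries.

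Further rises were found among sodium exchangers. SLC24A4, a sodium, potassium and calcium exchanger, had 6.30, 5.90 and 6.93 CPM with ruxolitinib, against 3.66, 3.79 and 4.17 CPM in control (0.72 ± 0.14, adjusted p = 0.0020). Its mean over all libraries was 5.10 CPM and every control library lay under 5 CPM. SLC24A4 thus passed the membership threshold only through its ruxolitinib libraries, which favours a rise. SLC9A7, a sodium and proton exchanger of the Golgi, had 13.7, 16.5 and 14.1 CPM with ruxolitinib, against 10.2, 10.5 and 10.3 CPM in control (0.51 ± 0.10, adjusted p = 0.0024). SLC9B2 averaged 11.3 CPM with ruxolitinib and 8.33 CPM in control (0.44 ± 0.11, adjusted p = 0.011), and its call ended without ruxolitinib replicate 1 (adjusted p = 0.0713). SLC12A2, the sodium, potassium and chloride cotransporter NKCC1, averaged 19.4 CPM with ruxolitinib and 15.9 CPM in control (0.29 ± 0.07, adjusted p = 0.012), and the call ended without ruxolitinib replicate 1 (adjusted p = 0.0556).

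Falls included both bicarbonate carriers of the SLC4 family that passed. SLC4A8, which takes up sodium and bicarbonate in exchange for chloride, had 25.2, 22.5 and 27.2 CPM with ruxolitinib, against 44.2, 45.4 and 44.1 CPM in control (-0.84 ± 0.07, adjusted p = 4.1e-06). SLC4A7, a sodium and bicarbonate cotransporter, had 221, 217 and 214 CPM with ruxolitinib, against 262, 256 and 263 CPM in control (-0.26 ± 0.04, adjusted p = 0.00057). Both acid-base carriers were lower in all 3 ruxolitinib libraries than in any control. SLC8B1, which exchanges sodium for calcium at the inner mitochondrial membrane, had 10.97, 9.004 and 10.6 CPM with ruxolitinib, against 13.4, 17.7 and 14.1 CPM in control (-0.57 ± 0.13, adjusted p = 0.0049; -0.35 without batch 2). SLC26A6, an anion exchanger among the most abundant of this class per length, averaged 93.5 CPM with ruxolitinib and 98.4 CPM in control and did not pass (adjusted p = 0.80).

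SLC20A1 lies on chromosome 2 (112645857 to 112663827, plus strand, GRCh38), and its window is shown as that of the largest rise among the 151 genes. RefSeq's start lies 82 bases downstream of the GENCODE start (window chr2:112645689-112645988, GRCh38.p14, plus strand), and the window holds none of the motifs searched.
SLC20A1 promoter: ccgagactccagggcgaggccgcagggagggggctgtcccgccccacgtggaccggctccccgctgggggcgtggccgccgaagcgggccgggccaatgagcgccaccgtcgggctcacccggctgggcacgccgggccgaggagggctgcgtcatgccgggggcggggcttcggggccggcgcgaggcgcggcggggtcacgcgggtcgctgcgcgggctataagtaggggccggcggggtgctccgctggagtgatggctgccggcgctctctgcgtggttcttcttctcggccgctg

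**Figure D4:**
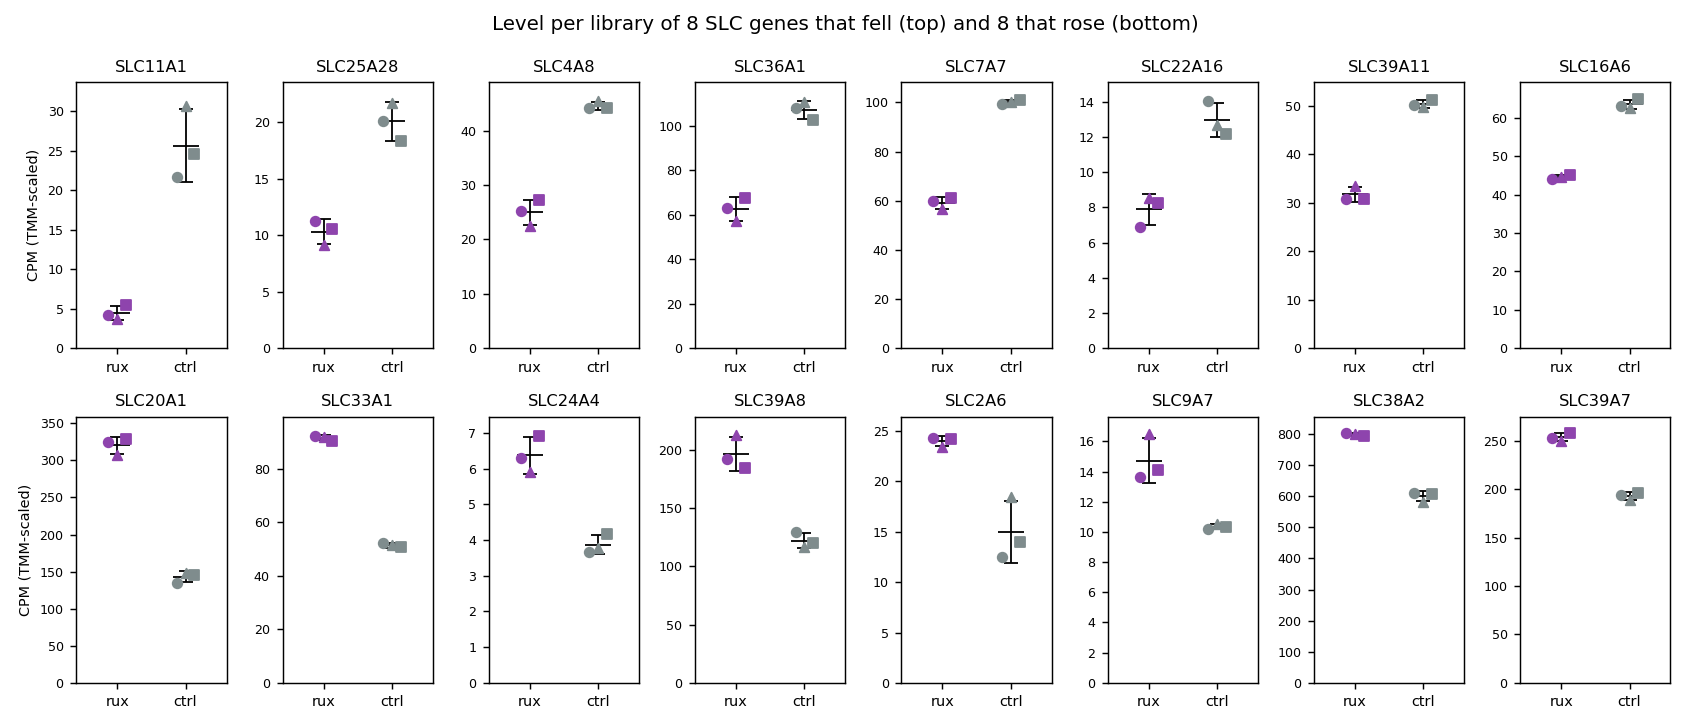
CPM over TMM-scaled totals (y axis, starting at 0) in each library for 8 SLC genes that fell (top) and 8 that rose (bottom), ruxolitinib on the left and control on the right of each panel. Circles, triangles and squares are replicates 1, 2 and 3, and the bars give the mean and SD of 3 libraries. In all 16 genes the groups did not overlap. SLC11A1 averaged 4.49 CPM with ruxolitinib and 25.7 CPM in control, and SLC20A1 320 CPM with ruxolitinib and 143 CPM in control. SLC11A1 with ruxolitinib and SLC24A4 in control averaged under 5 CPM, so both are members through their higher group.

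Carriers of organic ions, anions and vitamins numbered 9, of which 3 fell, 0 rose and 6 did not pass by edgeR's test. At an unadjusted p under 0.05 and by DESeq2 1 gene, SLC17A7, was higher, and by limma-voom 0 were. Without batch 2, 2 were higher. Over all tested genes of at least 5 CPM, 17.8% rose and 19.6% fell in the fit to 6 libraries. SLC22A16, a carnitine transporter, had 6.88, 8.52 and 8.27 CPM with ruxolitinib, against 14.03, 12.7 and 12.2 CPM in control (-0.71 ± 0.11, adjusted p = 0.00056). SLC22A15 had 81.1, 75.9 and 88.0 CPM with ruxolitinib, against 110, 110 and 108 CPM in control (-0.42 ± 0.06, adjusted p = 0.00016). SLC17A5, which exports sialic acid from the lysosome, had 71.0, 75.3 and 70.9 CPM with ruxolitinib, against 88.7, 89.7 and 90.8 CPM in control (-0.31 ± 0.05, adjusted p = 0.00046). These 3 calls held in all 19 refits. The ergothioneine carrier SLC22A4 averaged 54.0 CPM with ruxolitinib and 58.2 CPM in control and did not pass (adjusted p = 0.20).

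Among the 6 bile acid, fatty acid, choline and acetyl-CoA carriers, 1 rose, 1 fell and 4 did not pass. SLC33A1, which brings acetyl-CoA into the endoplasmic reticulum, had 92.2, 91.9 and 90.5 CPM with ruxolitinib, against 52.3, 51.4 and 50.6 CPM in control (0.83 ± 0.05, adjusted p = 9.6e-08). Libraries of each group differed by less than 2 CPM in SLC33A1. SLC44A2, a choline transporter, had 12.9, 10.9 and 12.9 CPM with ruxolitinib, against 15.6, 15.6 and 15.4 CPM in control (-0.35 ± 0.09, adjusted p = 0.015). Its call ended without control replicate 3 or ruxolitinib replicate 2 (adjusted p = 0.0517 and 0.0551). SLC44A1, the more abundant choline carrier, averaged 150 CPM with ruxolitinib and 152 CPM in control and did not pass (adjusted p = 0.75), nor did SLC10A3 (6.95 CPM with ruxolitinib and 6.38 CPM in control, adjusted p = 0.71). SLC49A4, a lysosomal membrane protein and the sole member outside these classes, fell with a log2 fold change of -0.44 ± 0.11 (adjusted p = 0.011), and its call ended without control replicate 3 or ruxolitinib replicate 1 (adjusted p = 0.0639 and 0.0647).

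SLC33A1 lies on chromosome 3 (155821024 to 155854456, minus strand, GRCh38), and its window is shown as that of the second largest rise among the 151 genes. RefSeq's start lies 29 bases downstream of the GENCODE start (window chr3:155854378-155854677, GRCh38.p14, minus strand), and it holds none of the motifs searched.
SLC33A1 promoter: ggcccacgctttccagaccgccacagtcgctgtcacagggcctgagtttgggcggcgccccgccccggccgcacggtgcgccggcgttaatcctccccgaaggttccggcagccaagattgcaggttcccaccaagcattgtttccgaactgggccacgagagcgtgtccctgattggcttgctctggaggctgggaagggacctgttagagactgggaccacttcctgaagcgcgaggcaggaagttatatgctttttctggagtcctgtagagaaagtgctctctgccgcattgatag

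Motifs were searched on both strands in the 120 promoter windows that matched one of the 151 genes. The interferon-stimulated response element, as the letters GAAANNGAAA, stood in 1 of 120 (0.833%), against 3.57% of 35116 promoters of the same length. The STAT site, as TTCNNNGAA, stood in 9 (7.5%), against 7.66% of all promoters. The C/EBP-ATF element TGATGNAA stood in 9 (7.5%), against 3.62%. CACGTGA, letters found in the lysosomal gene element, stood in 12 (10%), against 3.71%. The 35116 promoters were not limited to genes of at least 5 CPM, so the SLC shares are not set apart from those of other expressed genes. Among the 26 matched genes that fell, 3 held TGATGNAA (11.5%), namely SLC11A1, SLC1A3 and SLC39A11, and 4 held CACGTGA (15.4%). Among the 22 matched genes that rose, 1 held TGATGNAA (4.55%), SLC38A1, and 2 held CACGTGA (9.09%). Of the 72 matched genes that did not pass, 5 held TGATGNAA (6.94%) and 6 held CACGTGA (8.33%). TTCNNNGAA stood in 2 of the 22 that rose, 1 of the 26 that fell and 6 of the 72 that did not pass. These are matches of letters in 300-base windows and describe the sequence only.

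The 1 window with the interferon element was that of SLC7A7, on chromosome 14 (gene 22773222 to 22829820, minus strand, GRCh38). Its window is shown for that reason (chr14:22819742-22820041, GRCh38.p14, minus strand), and the capitals mark the element, read on the opposite strand, 10 bases before RefSeq's start. That start lies 10029 bases downstream of the GENCODE start, and gene counts do not say which start these cells used.
SLC7A7 promoter: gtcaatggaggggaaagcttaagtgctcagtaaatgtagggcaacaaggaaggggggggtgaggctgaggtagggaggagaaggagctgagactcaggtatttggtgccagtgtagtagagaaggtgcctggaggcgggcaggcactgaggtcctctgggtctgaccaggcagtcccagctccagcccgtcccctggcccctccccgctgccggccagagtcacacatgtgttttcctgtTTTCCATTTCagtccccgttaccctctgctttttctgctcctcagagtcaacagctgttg

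Levels between genes were compared per kilobase of exon (RPKM, from CPM over GENCODE 29 exon lengths). SLC39A14 was highest in both groups, with 156 ± 3.60 RPKM with ruxolitinib and 138 ± 3.22 RPKM in control (SD, n = 3 each), and its libraries did not overlap those of the next gene in either group. The order below it differed between the groups. With ruxolitinib, SLC38A2 (121 RPKM) and SLC7A11 (119 RPKM) came next, ahead of SLC25A5 (95.96 RPKM), SLC2A1 (90.7 RPKM) and SLC39A7 (89.2 RPKM), and of these neighbours SLC2A1 and SLC39A7 overlapped across libraries. In control, SLC7A11 (124 RPKM) was second, followed by SLC25A5 (96.4 RPKM), SLC38A2 (90.9 RPKM) and SLC1A3 (90.3 RPKM), each of these 3 overlapping its neighbour, and then by SLC43A3 (85.03 RPKM), SLC2A1 (75.6 RPKM) and SLC39A7 (67.7 RPKM). SLC43A3 and SLC1A3 stood at 68.1 and 64.2 RPKM with ruxolitinib, below SLC39A7. Over all 6 libraries, the median of the 151 genes was 5.29 RPKM. Summed over all 151 genes, the level averaged 12036 CPM with ruxolitinib and 11821 CPM in control. Zinc carriers summed to 2155, 2242 and 2142 CPM with ruxolitinib, against 1907, 1869 and 1929 CPM in control. SLC39A14, whose call ended under the replicate block and without batch 1, was the largest part of the zinc sum. The iron, copper and magnesium carriers summed to 379, 379 and 386 CPM with ruxolitinib, against 433, 430 and 439 CPM in control. Sums of the other classes are not given here.

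A list of 27 SLC proteins whose genes carry other symbols gave 25 tested genes, of which 7 rose, 6 fell and 12 did not pass. Over all tested genes, 13.6% were higher and 16.1% lower. The list was chosen with earlier results of these data known, so its counts are not compared with these shares. MFSD2A, a lysolipid transporter, had 819, 814 and 846 CPM with ruxolitinib, against 573, 599 and 581 CPM in control (0.50 ± 0.04, adjusted p = 3.6e-06). Both subunits of the mitochondrial pyruvate carrier rose, MPC1 by a log2 fold change of 0.43 ± 0.06 (adjusted p = 0.00021) and MPC2 by 0.42 ± 0.05 (adjusted p = 9.4e-05). The uncoupling protein UCP2 had 5.41, 4.07 and 6.87 CPM with ruxolitinib, against 13.6, 14.1 and 16.1 CPM in control (-1.42 ± 0.16, adjusted p = 6.9e-05), a larger fall than any of the 28 SLC25 genes had. The pyrophosphate and citrate exporter ANKH fell as well (-0.43 ± 0.06, adjusted p = 0.00027).

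Of 32 listed partners and regulators of transporters, 28 were tested, of which 7 rose, 8 fell and 13 did not pass. Over all tested genes, 13.6% were higher and 16.1% lower, and this list too was chosen with earlier results known. TXNIP and ARRDC4, the arrestins that bring about the internalisation of glucose transporters, both fell. TXNIP had 278, 280 and 260 CPM with ruxolitinib, against 479, 460 and 484 CPM in control (-0.80 ± 0.05, adjusted p = 1.1e-07), and ARRDC4 had 32.98, 36.9 and 31.7 CPM with ruxolitinib, against 46.6, 48.01 and 50.5 CPM in control (-0.52 ± 0.07, adjusted p = 0.00014). ACO1, the cytosolic aconitase that as an RNA-binding protein controls transcripts of iron transport, rose (0.59 ± 0.06, adjusted p = 3.2e-05), as did GPR89A, a channel protein of the Golgi (0.53 ± 0.07, adjusted p = 0.00011).

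The threshold of 5 CPM left out 227 SLC genes, 18 of them with 0 counts in every library. Just inside were SLC24A4 (5.10 CPM of the plain total), SLC43A1 and SLC10A7 (5.52 CPM each), and just outside were SLC1A2 (4.90 CPM), SLC22A5 (4.76 CPM) and SLC48A1 (4.65 CPM). Of the 227, 68 were tested, and 4 were higher (5.88%) and 7 lower (10.3%). Changes of at least 1 on the log2 scale passed in 5 of the 68, 2 higher and 3 lower. SLC1A2 was among them and rose by more than any of the 151 genes, so rankings above hold within the 151 only. Over all tested genes, which include more abundant ones, 13.6% were higher and 16.1% lower.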

How the data were processed

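Poly-A RNA of 6 THP-1 libraries, 3 with ruxolitinib and 3 control, was sequenced per the labels. The table the authors deposited holds raw counts of reads for each gene, without normalization; the genome build was hg38 per the submitters' processing notes. The sources used here name no aligner, counting program, annotation or strand setting, so overlapping antisense genes cannot be separated. Every row names a gene.

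Counts were tested with edgeR 4.0.16 (R 4.3.3; glmQLFit and glmQLFTest, robust; TMM factors; filterByExpr with a minimum count of 10 and total of 15), adjusted over 14051 genes by Benjamini-Hochberg with a threshold of 0.05. SE is the size of the log2 fold change over the root of F. The same procedure was also run on simulated counts, with no outcome given here. These were drawn without batch or GC differences between libraries, so that run cannot vouch for the calls in these data. CPM and RPKM levels were computed from the deposited counts, with GENCODE 29 exon lengths and coordinates. Promoter sequences are RefSeq's, GRCh38.p14; 120 of 151 genes matched.

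The members, classes and lists were chosen with earlier results of these data known. Named genes are the 15 largest rises and 15 largest falls past the threshold whose groups do not overlap, up to 4 members per class with the smallest adjusted p, the 3 highest levels per length in each class, a fixed group, and others where their class is described. The values of 1 gene are not reported here. The lists of other genes gave the 5 smallest adjusted p each. No 2 libraries of a group agreed within sampling noise (chi-square per degree of freedom 3.39 to 21.5).

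Replicate numbers are batch numbers in the labels, which pairs a ruxolitinib with a control library. The pairing comes from the label alone. Deviations of same-numbered libraries from their groups were correlated across genes at -0.02, -0.19 and -0.10, so the counts show no shared deviation within these pairs. Alternatives were the replicate block, other scalings and filters, DESeq2 1.42.0, limma-voom (limma 3.58.1), each library or batch left out, and membership at 2 or 10 CPM. Offsets for transcript GC were chosen after seeing the data.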

Additional observations from a re-analysis of the deposited data

How the results depend on the processing

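Over 19 refits, all 59 called SLC genes kept their direction. Without both libraries of batch 1, 14 SLC genes were higher, 20 lower and 1983 of all genes passed, against 25, 34 and 4175 with all 6 libraries; fewer samples were fitted. Without batch 2, 38 were higher. The replicate block gave 20 higher, 27 lower and 2915 of all genes, all 47 among the 59. DESeq2 gave 23 higher and 25 lower. Leaving out 1 library gave 19 to 29 higher, 24 to 33 lower and 2941 to 4266 of all genes. The median log2 fold change of the SLC genes (-0.0252) was -0.0137 with median-ratio factors, 0.0101 with upper-quartile factors, -0.0610 with library totals alone, -0.00886 with DESeq2, -0.0448, -0.0378 and -0.0699 without batches 1, 2 and 3, -0.0512 with membership at 10 CPM, and -0.0522 to -0.0232 with 1 library left out. The median over all genes lay between -0.0912 and 0.0233. Without batch 2, SLC1A5 (0.196) and SLC16A3 (0.199) were above 0, against -0.05 and -0.01 with all libraries; the cause was not tested. The replicate block ended 12 SLC calls; it moved none of these overall counts by over 1.5 times, but moved zinc carriers to 3 rises and 1 fall, against 5 and 2, and nucleotide sugar carriers to 1 rise and 0 falls, against 2 and 2.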

Other observations

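Of the 68 tested SLC genes under 5 CPM, 11 passed by edgeR's test (16.2%), against 29.7% of all tested genes. A share over all tested genes under 5 CPM is not given here, so the 11 are not set apart from other genes of low level. SLC1A2, the glutamate transporter of astrocytes, had 7.93, 6.70 and 6.39 CPM with ruxolitinib, against 2.48, 3.31 and 2.78 CPM in control (log2 fold change 1.28 ± 0.16, adjusted p = 8.2e-05), while its relative SLC1A3 fell. The fructose transporter SLC2A5 had 3.05, 4.18 and 4.296 CPM with ruxolitinib, against 1.97, 1.79 and 1.52 CPM in control (1.13 ± 0.20, adjusted p = 0.0013). SLC22A23 and the betaine carrier SLC6A12 were the other rises (0.70 ± 0.24 and 0.84 ± 0.27). The plasma membrane sodium and calcium exchanger SLC8A1 had 1.37, 1.72 and 1.83 CPM with ruxolitinib, against 4.0, 3.67 and 3.56 CPM in control (-1.19 ± 0.19, adjusted p = 0.00049). The urate transporter SLC2A9 had 2.00, 1.39 and 1.99 CPM with ruxolitinib, against 3.55, 3.23 and 2.48 CPM in control (-0.77 ± 0.22, adjusted p = 0.020). SLC7A8, SLC26A11, SLC26A9, SLC27A3 and SLC24A1 were the other falls, with log2 fold changes of -1.38, -1.14, -0.93, -0.80 and -0.55. The nucleoside transporter SLC29A3 of the lysosome averaged 3.87 CPM with ruxolitinib and 4.99 CPM in control and did not pass (adjusted p = 0.12).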
